A study of Mus musculus with 14 samples.

Results

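The expression of 10 genes of the Wnt pathway was examined in mouse lung tumors with and without targeting of Setd2, the enzyme that trimethylates lysine 36 of histone H3. The genes were the ligands Wnt9a, Wnt7b and Wnt5a, the acyltransferase Porcn, the secreted deacylase Notum, the receptor Lgr5, the intracellular regulators Axin2 and Nkd1, and the transcription factors Lef1 and Tcf7. They were picked by symbol out of 52550 genes because Wnt9a and Axin2 had higher mean counts in Setd2-targeted tumors, so their difference between genotypes is given as a description without a test. RNA-seq libraries came from 6 KPY-Ctrl and 8 KPY-Setd2KO tumors. According to the study's methods, all mice carried Trp53 flox/flox and Rosa26 LSL-YFP, among other alleles. The mice were of mixed B6J and 129S4vJae background. In them Cre deletes p53 and marks recombined cells with yellow fluorescent protein (YFP). Tumors were started by delivering the lentivirus LentiCRISPRv2Cre, which supplies Cre, Cas9 and a guide RNA, into the trachea. The guide was sgBGal, against bacterial beta-galactosidase, in KPY-Ctrl and sgSetd2 in KPY-Setd2KO, and live YFP-positive cells were sorted from dissected tumors. The labels describe RNA from cell lines and other kits instead, and the conflict was not resolved. There were fewer mice than tumors in each genotype and the mouse of each tumor is not given, so the tests below treat tumors as independent although some share a mouse. Any p-value thus measures the spread between these tumors, and ages are not given in the labels.

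Wnt ligands are secreted lipid-modified proteins. Porcn attaches the lipid in the ligand-producing cell and Notum removes it outside the cell. Binding to Frizzled and Lrp5 or Lrp6 stops the Axin-containing destruction complex from degrading beta-catenin, which then acts with Tcf7, Lef1 and related factors on target genes such as Axin2, Nkd1, Notum and Lgr5, several of which restrain the signal in turn. In lung, Wnt signals are known to maintain part of the alveolar type 2 cells and to mark progenitor-like cells of adenocarcinomas.

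The upstream sequences of 4 of these genes are shown. The results below turn on Wnt9a and Axin2, and on Nkd1 as the target that behaved differently. Lef1 is shown as the only one of the 5 genes that could be searched with a TCF/LEF motif match, in 1 of its 4 windows. The sequences are RefSeq annotation on GRCm38.p6, which gave windows for 5 of the 10 genes (Wnt9a, Axin2, Nkd1, Lef1 and Tcf7). Each is printed 5′ to 3′ over the 250 bases before an annotated start on the plus strand, with the motif in capitals where present. The positions were chr11:59306680-59306929 for Wnt9a, chr11:108920099-108920348 for Axin2, chr8:88527383-88527632 for Nkd1 and chr3:131156044-131156293 for Lef1. The Nkd1 and Lef1 windows precede starts inside the span of the gene.
Wnt9a: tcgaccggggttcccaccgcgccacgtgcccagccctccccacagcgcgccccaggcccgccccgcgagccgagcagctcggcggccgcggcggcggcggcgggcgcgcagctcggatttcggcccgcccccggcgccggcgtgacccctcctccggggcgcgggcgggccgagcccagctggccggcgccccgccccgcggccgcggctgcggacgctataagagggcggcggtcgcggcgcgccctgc
Axin2: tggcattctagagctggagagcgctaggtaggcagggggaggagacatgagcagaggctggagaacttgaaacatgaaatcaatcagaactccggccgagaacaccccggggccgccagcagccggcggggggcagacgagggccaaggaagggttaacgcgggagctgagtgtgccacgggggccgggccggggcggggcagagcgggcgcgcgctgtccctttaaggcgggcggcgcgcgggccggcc
Nkd1: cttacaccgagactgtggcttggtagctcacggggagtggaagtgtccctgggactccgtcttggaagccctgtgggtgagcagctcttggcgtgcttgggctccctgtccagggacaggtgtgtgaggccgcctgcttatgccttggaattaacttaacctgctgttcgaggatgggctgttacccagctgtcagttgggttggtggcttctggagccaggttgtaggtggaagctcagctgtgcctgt
Lef1: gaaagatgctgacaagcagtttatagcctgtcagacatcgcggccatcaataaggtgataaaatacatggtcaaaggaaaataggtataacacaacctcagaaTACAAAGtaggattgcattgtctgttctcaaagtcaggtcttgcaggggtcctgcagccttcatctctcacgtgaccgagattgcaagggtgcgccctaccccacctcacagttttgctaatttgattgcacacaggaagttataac
The Wnt9a sequence was 84.4% G and C with 48 CG pairs, and the Axin2 sequence was 69.2% with 24 CG pairs. The Nkd1 sequence, at 58.4% with 6 CG pairs, lay closer to the median of all RefSeq windows, which was 52.4% with 6 CG pairs. The motif that TCF/LEF factors bind was searched as CTTTGAA and, with another last base, as CTTTGAT, and in the same way as CTTTGTA and, with another last base, as CTTTGTT. All were looked for on both strands of the 300-base windows that run on to 50 bases after each start. None was found for Wnt9a, Axin2, Nkd1 or the 2 windows of Tcf7. One of the 4 Lef1 windows held the match TACAAAG, the reverse strand of CTTTGTA, starting 147 bases before the start. Of all 32851 windows, 16.9% held at least 1 match.

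Libraries held between 20072236 and 51828846 counts, so that 3 counts corresponded to between 0.0469 and 0.156 CPM (counts scaled to library size), taken as the floor below which a level is not distinguished from none. Scaling used the trimmed mean of M-values (TMM), and these limits cover counting error only. For Setd2 itself, the KPY-Ctrl tumors lay between 41.9 and 63.6 CPM (mean 53.0 ± 8.51, SD, n = 6). The KPY-Setd2KO tumors lay between 17.9 and 47.4 CPM (mean 31.7 ± 10.9, SD, n = 8), so the groups overlapped. Epithelial and alveolar type 2 markers were present in all tumors, but so was leukocyte RNA. The mean log2 CPM of 10 leukocyte markers is called the leukocyte score. It lay between 4.90 and 9.72 in KPY-Ctrl and between 4.62 and 10.03 in KPY-Setd2KO, with no tumor between 6.69 and 9.28. At scores of at most 6.69, Setd2 measured 41.9 to 63.6 CPM in KPY-Ctrl and 17.9 to 28.2 CPM in KPY-Setd2KO. In the other tumors KPY-Setd2KO lay between 32.7 and 47.4 CPM, and the lowest KPY-Ctrl tumor was at 44.8 CPM. These ranges were not tested. The log2 fold change of Setd2 was -0.74 (adjusted p = 0.175, edgeR) on genotype alone. With the score in the model it was -0.83 (adjusted p = 0.0273, edgeR). KPY-Setd2KO replicates 5 and 6 stood apart for many of the Wnt genes, and values are therefore given with and without them. These tumors had the second highest Pearson's r among 91 tumor pairs (0.97 across tested genes), although their counts differed by more than sampling noise, with a chi-square of 100.7 per degree of freedom. The pair with the highest r was KPY-Ctrl replicates 4 and 5 (0.985), whose chi-square of 22.0 per degree of freedom was the lowest of all pairs.

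Of the ligands, Wnt9a was the gene around which the list was chosen. It lies on chromosome 11 of GRCm38 from 59306928 to 59333552 (ENSMUSG00000000126). Its level was at most 0.323 CPM in KPY-Ctrl, with a lowest value of 0 and a median of 0.114. In KPY-Setd2KO the lowest value was 0, the median 0.263 and the highest 3.25 CPM. The levels in replicates 5 and 6 were 2.20 and 3.25 CPM, from 105 and 127 counts, and no other tumor of either genotype exceeded 0.430 CPM or 19 counts. The group means were 0.156 ± 0.127 CPM (SD, n = 6) and 0.831 ± 1.21 CPM (SD, n = 8), a fitted log2 fold change of 2.38 (standard error 1.06). Without replicates 5 and 6 the KPY-Setd2KO mean was 0.1998 ± 0.151 CPM (SD, n = 6), and the difference of mean log2 CPM went from 1.18 to 0.25. The 2 tumors in which Wnt9a was at 0, KPY-Ctrl replicate 1 and KPY-Setd2KO replicate 7, had floors of 0.0716 and 0.156 CPM. In bulk RNA such as this, fewer cells of a type and less RNA per cell cannot be told apart.

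Wnt7b, a ligand of lung epithelium that supports growth of the developing lung, had the same 2 tumors on top at higher levels. It lies on chromosome 15 from 85535437 to 85582473, on the minus strand. In KPY-Ctrl it ranged from 3.57 to 8.51 CPM with a median of 5.25. In KPY-Setd2KO it ranged from 2.72 to 134.2 CPM with a median of 10.6. In replicates 5 and 6 Wnt7b measured 108.8 and 134.2 CPM, 6.47 and 7.97 times the highest of the other 12 tumors (16.8 CPM, KPY-Setd2KO replicate 8). The means were 5.95 ± 2.07 CPM (SD, n = 6) and 36.3 ± 53.3 CPM (SD, n = 8). The log2 fold change was 2.61 (standard error 0.95) with all tumors and 0.39 without those replicates. KPY-Setd2KO replicates 7 and 8, at 13.4 and 16.8 CPM, also lay above all KPY-Ctrl tumors, while the other 4 lay within or below the KPY-Ctrl range. Per 1000 counts of Epcam, an epithelial surface protein gene, Wnt7b stood at 188 and 159 in replicates 5 and 6 and at no more than 39.9 in any other tumor. The corresponding Wnt9a ratios were 3.81 and 3.86 in replicates 5 and 6, but 3.58 and 3.64 in KPY-Setd2KO replicates 2 and 4, from 8 and 12 counts of Wnt9a.

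Wnt5a, which mainly signals without beta-catenin, did not share this pattern. It lies on chromosome 14 from 28504750 to 28527448. In KPY-Ctrl its lowest, median and highest levels were 0.406, 3.96 and 7.91 CPM. The KPY-Setd2KO tumors had 0.0645, 1.72 and 12.01 CPM. The highest tumor was KPY-Setd2KO replicate 8, replicate 5 followed with 8.92 CPM, and replicate 6 at 4.38 CPM lay within the KPY-Ctrl range. The groups overlapped, with means of 4.00 ± 2.45 CPM (SD, n = 6) and 3.74 ± 4.45 CPM (SD, n = 8) and a log2 fold change of -0.09 (standard error 0.88).

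**Figure D1:**
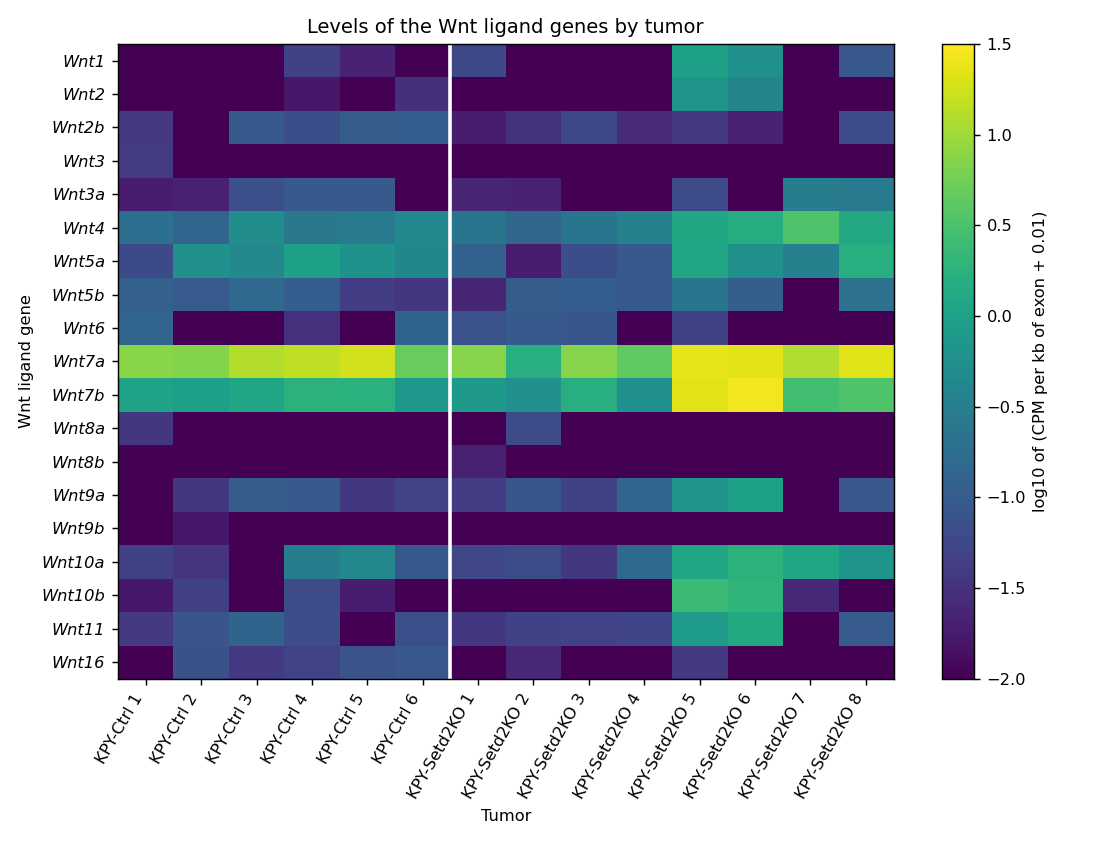
Levels of 19 Wnt ligand genes (vertical axis) in each of the 14 tumors (horizontal axis, genotypes divided by the white line), coloured by log10 of CPM per kb of exon plus 0.01. Wnt7a is the brightest ligand in most tumors, and the columns of KPY-Setd2KO replicates 5 and 6 are brighter than the rest for Wnt7b, Wnt9a, Wnt1, Wnt2, Wnt10b and Wnt11.

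Set against all 19 Wnt ligand genes per kb of exon, Wnt7b was the second most abundant ligand after Wnt7a in 12 tumors. In KPY-Setd2KO replicate 6 it was the first, and in replicate 7 Wnt4 came between them. Its ratio to Wnt7a lay between 0.0887 and 0.150 in KPY-Ctrl. In KPY-Setd2KO it was 0.957 in replicate 5 and 1.23 in replicate 6, the only tumor with more Wnt7b than Wnt7a per length. It lay between 0.1004 and 0.368 in the other 6 KPY-Setd2KO tumors, the highest being replicate 2. Both ligands were counted in the same libraries, so this ratio does not depend on how libraries are scaled. The number of ligand genes with at least 10 counts was 11 in both replicates 5 and 6 and from 3 to 8 in the other KPY-Setd2KO tumors. It ran from 5 to 12 in KPY-Ctrl, with the highest number in replicate 4, the deepest library of the series. Of the ligand genes outside the 10, 5 were also highest in replicates 5 and 6, namely Wnt7a, Wnt11, Wnt10b, Wnt1 and Wnt2, named after their values were seen. Wnt10b measured 8.19 and 6.58 CPM there and at most 0.188 CPM in any other tumor. Wnt1 measured 2.28 and 1.36 CPM against at most 0.191, and Wnt2 1.45 and 0.871 CPM against at most 0.0455, which is below the floor of any tumor. Wnt10b, Wnt1 and Wnt2 did not pass the expression filter and were not tested.

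Porcn lies on the X chromosome from 8193848 to 8206525. Its lowest, median and highest levels were 3.41, 7.75 and 15.7 CPM in KPY-Ctrl. Among KPY-Setd2KO tumors they were 2.10, 6.48 and 27.8 CPM, the highest again in replicate 8. Replicates 5 and 6, at 8.44 and 9.79 CPM, lay within the KPY-Ctrl range, and the log2 fold change was 0.06 (standard error 0.57). Porcn instead followed the leukocyte score. The 7 tumors with a score of at least 9.28 held between 2.10 and 5.30 CPM, and the 7 with a score of at most 6.69 held between 8.44 and 27.8 CPM. Wls, the carrier that brings acylated ligands to the cell surface, had a log2 fold change of -0.45 (adjusted p = 0.51, edgeR's quasi-likelihood test).

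Notum lies on chromosome 11 from 120653788 to 120661175. Its lowest, median and highest levels were 0.0239, 0.256 and 1.01 CPM in KPY-Ctrl, the lowest from 1 count and under the floor. In KPY-Setd2KO they were 0.0716 (2 counts, under the floor), 0.989 and 9.20 CPM. It stood in replicates 5 and 6 at 6.64 and 9.20 CPM, and replicates 7 and 8, at 1.82 and 1.61 CPM, also exceeded all KPY-Ctrl tumors. The remaining 4 KPY-Setd2KO tumors lay inside the KPY-Ctrl range. The log2 fold change of 2.93 (standard error 1.11) was the largest of the tested genes among the 10, and it was 1.16 without replicates 5 and 6.

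Lgr5, a receptor for R-spondins and a stem cell marker in gut, was near the floor outside a few tumors and did not pass the expression filter, which made it the only one of the 10 left out of the fit. It lies on chromosome 10 from 115450311 to 115587780. Its lowest, median and highest levels were 0, 0.0868 and 0.425 CPM in KPY-Ctrl. In KPY-Setd2KO they were 0.0382, 0.0866 and 1.90 CPM. Lgr5 reached 0.943 and 1.90 CPM in replicates 5 and 6, from 45 and 74 counts, and replicate 7 held 0.467 CPM from 9 counts, while the other 5 lay below the highest KPY-Ctrl tumor. Lgr6, its close relative and outside the 10, had far more counts in the same tumors. It measured 129.7 and 111.2 CPM in replicates 5 and 6 and at most 8.53 CPM elsewhere. Its log2 fold change of 2.84 (adjusted p = 0.391, edgeR) became -0.99 without them. DESeq2, given all tumors, had -0.75 with its default replacement of outlying counts, and which counts it replaced was not examined.

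Axin2, a scaffold of the destruction complex and a widely used reporter of beta-catenin activity, lies on chromosome 11 from 108920349 to 108950783. Its lowest, median and highest levels were 0.159, 0.346 and 0.703 CPM in KPY-Ctrl. For KPY-Setd2KO they were 0, 0.419 and 3.90 CPM. Replicates 5 and 6 held 3.90 and 3.61 CPM, from 186 and 141 counts, replicate 8 held 1.22 CPM, and replicate 7 had no count at a floor of 0.156 CPM. The other 4 lay at or below 0.430 CPM, inside or under the KPY-Ctrl range. The means were 0.407 ± 0.213 CPM (SD, n = 6) and 1.26 ± 1.59 CPM (SD, n = 8), with a log2 fold change of 1.63 (standard error 0.91). Without replicates 5 and 6 the KPY-Setd2KO mean was 0.426 ± 0.431 CPM (SD, n = 6) and the log2 fold change 0.05.

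Nkd1, which binds Dishevelled and dampens the pathway, departed from the other targets. It lies on chromosome 8 from 88521354 to 88594884. Its lowest, median and highest levels were 2.91, 6.42 and 69.8 CPM in KPY-Ctrl. In KPY-Setd2KO they were 3.76, 6.45 and 37.2 CPM. The high tumors were KPY-Ctrl replicate 3 and KPY-Setd2KO replicates 7 and 8, the latter at 35.2 and 37.2 CPM, whereas replicates 5 and 6 held 4.08 and 7.56 CPM, close to the medians. The log2 fold change was -0.39 (standard error 0.82) and was 0.95 when KPY-Ctrl replicate 3 was left out. Across the 14 tumors Pearson's r of log2 CPM between Nkd1 and Axin2 was -0.14, and between Wnt7b and Tcf7 it was 0.92, both as descriptions of tumors that share a library depth, a leukocyte content and partly a mouse.

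Of the transcription factors, Lef1 lies on chromosome 3 from 131110471 to 131224356, with lowest, median and highest levels of 0.119, 0.312 and 0.750 CPM in KPY-Ctrl. In KPY-Setd2KO these were 0.0645, 0.337 and 1.09 CPM. Replicates 5, 6 and 8 lay above all KPY-Ctrl tumors, at 1.09, 1.03 and 1.07 CPM, and the other 5 did not. The log2 fold change was 0.57 (standard error 0.67), and -0.04 without replicates 5 and 6.

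Tcf7 lies on chromosome 11 from 52252371 to 52283014, on the minus strand. Its lowest, median and highest levels were 0.318, 1.12 and 1.46 CPM in KPY-Ctrl. In KPY-Setd2KO they were 0.322, 0.847 and 9.50 CPM. The highest tumors, replicates 5 and 6, held 9.32 and 9.50 CPM, 5.94 and 6.06 times the highest of the other 12 tumors. The log2 fold change was 1.61 (standard error 0.85) with all tumors and -0.33 without them. Lef1 and Tcf7 are also expressed by T cells. The summed level of 9 T-cell markers was 8.42 and 11.3 CPM in replicates 5 and 6, within ranges of 6.03 to 420 CPM in KPY-Ctrl and 8.42 to 540 CPM in KPY-Setd2KO, but in the tumors with high sums nearly all of it was Cd2. Single markers differed: Cd3e and Cd8a were at 0 in both replicates, Cd3d at 2.14 and 2.18 CPM lay mid-range, and Cd5 at 0.754 and 0.615 CPM was highest there (at most 0.525 CPM elsewhere). Trac measured 1.30 and 1.59 CPM, the latter the highest of all tumors. The part of T cells in the Tcf7 and Lef1 levels was not tested. Per kb of exon, the related factor Tcf7l1 exceeded Tcf7 and Lef1 in every tumor, and Tcf7l2 exceeded them in all but replicates 5 and 6, where it lay between them. Tcf7 reached 3.55 and 3.62 CPM per kb in replicates 5 and 6, where Tcf7l1 stood at 9.76 and 6.54 and Tcf7l2 at 2.71 and 3.00 CPM per kb.

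**Figure D2:**
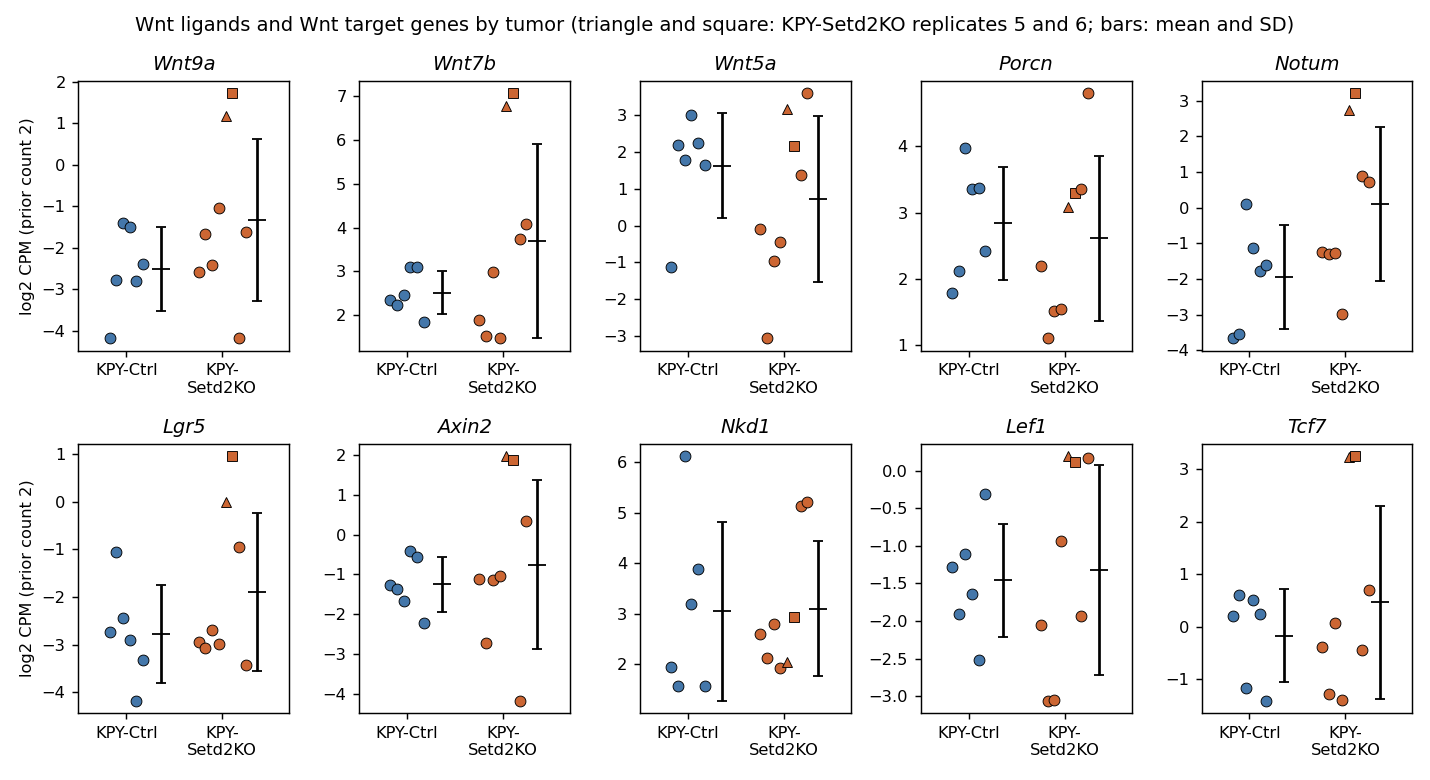
Log2 CPM with a prior count of 2 (vertical axes) of the 10 genes in 6 KPY-Ctrl (blue) and 8 KPY-Setd2KO (orange) tumors, with 1 point per tumor and bars for the mean and SD. The triangle and square, KPY-Setd2KO replicates 5 and 6, are the highest points for Wnt9a, Wnt7b, Notum, Lgr5, Axin2 and Tcf7 and lie low or in the middle for Nkd1.

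By the median of the 14 tumors in CPM per kb of exon, the order of the 10 genes was Porcn (2.29), Nkd1 (1.42), Wnt7b (1.36), Wnt5a (0.415), Tcf7 (0.398), Notum (0.152), Axin2 (0.0730), Wnt9a (0.0592), Lef1 (0.0355) and Lgr5 (0.00846). Only Wnt7b exceeded its lower neighbour in all 14 tumors. Wnt5a exceeded Tcf7 in 7 tumors, Axin2 exceeded Wnt9a in 8 and Nkd1 exceeded Wnt7b in 8, so these neighbours did not differ beyond their spread. The other neighbours kept their order in 9 or 10 of the 14 tumors, and the ranges of all neighbours overlapped.

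For 6 of the 10 genes (Wnt7b, Wnt9a, Lgr5, Notum, Axin2 and Tcf7), KPY-Setd2KO replicates 5 and 6 held the 2 highest levels of all 14 tumors. Of the 9 genes that passed the expression filter, 5 did so (55.6%), against 6.63% of the 16836 genes tested. The pattern was noticed in these values, and genes chosen for a high mean in KPY-Setd2KO favour it, so nothing more is read from the share. Of the 56 other Wnt pathway genes tested, 11 did so (19.6%). They were the ligands Wnt7a and Wnt11, the receptors Lgr6, Fzd8 and Lrp5, the antagonists Dkk2 and Dkk3, the kinase Csnk1a1 and the targets Myc, Ccnd1 and Sox9. Wnt11 and Dkk3, like Wnt9a among the 10, did not pass the expression filter without replicates 5 and 6. The filter thus favours their being on top there, and nothing more is read from these counts. No other pair of tumors was on top for more than 2 of the 10 genes, but pairs also differed over all genes. KPY-Ctrl replicates 4 and 5 held the 2 highest levels of 7.91% of genes tested, and of 12 of the 56 other Wnt pathway genes, 5 of them Frizzled or Lrp receptors, but of none of the 10. KPY-Setd2KO replicates 5 and 6 also had the lowest summed leukocyte-marker levels of all tumors, at 1259 and 1863 CPM. Of these sums, 982 and 1488 CPM were Cd74 alone. By the leukocyte score, KPY-Ctrl replicate 3 at 4.90 lay between replicate 5 at 4.62 and replicate 6 at 5.21. Replicates 5 and 6 of KPY-Setd2KO had the highest summed epithelial-marker levels, at 6577 and 7314 CPM, with KPY-Setd2KO replicate 8 next at 6301 CPM. Only 2 of the 6 epithelial markers, Epcam and Krt8, were highest in both. Cdh1, at 877 and 1022 CPM there, lay below the 1242 CPM of KPY-Ctrl replicate 3. In replicates 5 and 6 the sums of 6 lung adenocarcinoma and alveolar type 2 markers were 17100 and 25970 CPM. These lay below the 39130 to 63910 CPM of the other 5 tumors with a leukocyte score of at most 6.69. Sftpc, at 8590 and 13100 CPM, was the largest part of these sums. In replicate 6, Lamp3 at 925 CPM and Sftpa1 at 5314 CPM lay within the range of those 5 tumors. The fibroblast-marker sums of replicates 5 and 6, 13.5 and 12.2 CPM, lay within the range of both genotypes. Setd2 measured 27.8 and 18.2 CPM in them, and was as low in replicate 7, at 17.9 CPM. The part of these in the Wnt levels was not tested.

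The genes most like the pair that opened the choice were found by Pearson's r of log2 CPM over the 14 tumors. For Wnt9a these were Ephb2 (0.90), Polk (0.89) and Wnt11 (0.89), of which Ephb2 is a receptor tyrosine kinase and Polk a translesion DNA polymerase. For Axin2 they were Plekhg3, Sgms2 and Pitpnc1, each at 0.90. All 6 had their highest levels in replicates 5 and 6, for example 91.9 and 80.5 CPM of Plekhg3 against at most 35.3 CPM in other tumors. Wnt9a and Axin2 were themselves highest in these tumors, so genes chosen for a high r with them favour this pattern. Nothing more is read from it.

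Over the 9 genes fitted, the median log2 fold change between genotypes was 1.61, with 7 above 0, beside a median of 0.03 over all 16836 genes tested, and it was 1.09 over the 8 of them other than Wnt9a. Without replicates 5 and 6 it was -0.01 over the 8 genes that still passed the filter, Wnt9a being the one lost. With library size as the only scaling, the median over all genes became -0.11 and that over the 9 genes became 1.604. By the quasi-likelihood test of edgeR, no gene of the whole table had an adjusted p below 0.05 (0% of 16836), although 2311 had an unadjusted p under 0.05. DESeq2 called 702 of the genes it tested (3.7%), 414 in the direction of KPY-Setd2KO and 288 in that of KPY-Ctrl.

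**Figure D3:**
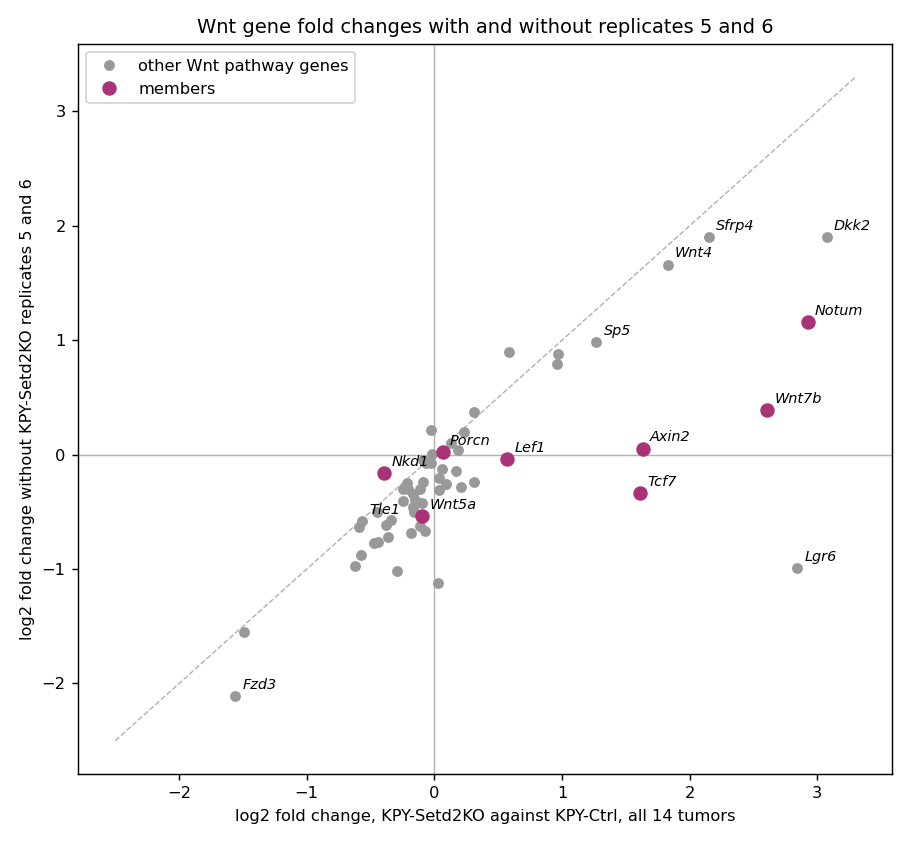
Log2 fold change of KPY-Setd2KO against KPY-Ctrl for Wnt pathway genes, with all 14 tumors (horizontal axis) and without KPY-Setd2KO replicates 5 and 6 (vertical axis), for genes that passed the expression filter in both fits. On the dashed line both values are equal. Axin2, Tcf7 and Wnt7b lie between 1.61 and 2.61 on the horizontal axis and between -0.33 and 0.39 on the vertical one, where Notum is at 1.16 and Lgr6 at -0.99.

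Of the other 88 genes in the Wnt pathway lists, which were not used to choose the 10, 56 were tested between genotypes. None was called by edgeR at an adjusted p under 0.05, the background being 0% of all genes, and 5 were higher and 4 lower at an unadjusted p under 0.05. DESeq2 called 1 gene in each direction. The higher was Dkk2, a secreted antagonist, with a log2 fold change of 3.07 (adjusted p = 0.157 from edgeR and 0.00325 from DESeq2). It measured 12.3 and 11.6 CPM in KPY-Setd2KO replicates 5 and 6 and at most 5.97 CPM elsewhere, and its log2 fold change was 1.90 without them. The lower was Tle1, a corepressor that binds TCF/LEF factors, with a KPY-Ctrl mean of 40.8 ± 8.16 CPM (SD, n = 6) and a KPY-Setd2KO mean of 27.6 ± 2.94 CPM (SD, n = 8). Its log2 fold change of -0.56 (adjusted p = 0.129 from edgeR and 0.0155 from DESeq2) was -0.58 without replicates 5 and 6.

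By role, the 4 other ligands tested had log2 fold changes between 0.21 and 2.37, and Wnt4 had the smallest p among them (log2 fold change 1.83, adjusted p = 0.271, edgeR). Its highest level, 14.1 CPM, was in KPY-Setd2KO replicate 7, and without replicates 5 and 6 the value was 1.66. The 4 other secreted antagonists tested lay between 2.15 and 4.88, the top being Dkk3 at 28.0 and 29.8 CPM in replicates 5 and 6 and at most 0.994 CPM elsewhere (adjusted p = 0.251, edgeR). In DESeq2, with its default replacement of outlying counts, the log2 fold change of Dkk3 was 0.36 (adjusted p = 0.913). Without replicates 5 and 6 the difference of mean log2 CPM of Dkk3 went from 1.96 to 0.22. Of the 13 receptors and co-receptors tested, 2 had a log2 fold change above 0. Fzd7, a Frizzled receptor, had -0.59 (adjusted p = 0.189) and Fzd3 had -1.56 (adjusted p = 0.257, edgeR). The 14 tested genes of the transducers and destruction complex had a median of -0.16, and the lowest, Tnks, a poly-ADP-ribosyltransferase that destabilizes Axin, had -0.62 (adjusted p = 0.396, edgeR). Among TCF/LEF factors and cofactors, the chromatin reader Pygo1 had the largest value, 0.97 (adjusted p = 0.445, edgeR). The known target Sp5 had 1.27 (adjusted p = 0.391, edgeR), with its highest level of 9.39 CPM in KPY-Setd2KO replicate 7. Over all 56 the median was -0.07, with 24 above 0, and it was -0.30 without replicates 5 and 6. Wnt10a, Wnt11, Dkk3 and Frzb did not pass the expression filter in that fit, so its medians leave them out. The median of the other ligands went from 1.97 to 0.69, but the latter rests on Wnt4 and Wnt7a alone. These had 1.83 and 0.21 with all tumors and 1.66 and -0.28 in that fit. The median of the receptors went from -0.18 to -0.67, and that of the other known targets from 0.31 to -0.20.

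Against the leukocyte score, with genotype in the model, 7 of 8 fitted genes other than Wnt9a had a negative slope with an adjusted p below 0.05 (quasi-likelihood test of edgeR), and none a positive one. Wnt9a is not counted because it was fitted only while KPY-Setd2KO replicates 5 and 6, which have low scores and its highest levels, were both present. Axin2, one of the 7, was also used to choose the list and was highest in the same low-score tumors. Its slope is therefore not independent of that choice and is given as a description. The background was high in both directions, with 28.4% of all genes tested called negative and 28.4% called positive. Slopes are log2 changes per unit of the score. The steepest was Notum (-0.82, standard error 0.12, adjusted p = 6.65e-05, edgeR), followed by Wnt7b (-0.66, adjusted p = 0.000804, edgeR). Nkd1 had -0.61, Wnt5a -0.58, Axin2 -0.49, Tcf7 -0.48 and Porcn -0.43, with adjusted p between 0.00124 and 0.0187 in edgeR. Lef1 was the exception, with -0.24 (standard error 0.15, adjusted p = 0.191, edgeR).

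With KPY-Setd2KO replicates 5 and 6, whose scores were 4.62 and 5.21, left out, 5 of 8 slopes were called. Nkd1 had -0.82 (adjusted p = 7.82e-06), Notum -0.69, Wnt5a -0.62, Porcn -0.55 and Wnt7b -0.33 (adjusted p = 0.00976, edgeR). Axin2 had -0.23 (adjusted p = 0.328) and Tcf7 -0.09 (adjusted p = 0.631, edgeR) in that fit. Because no tumor had a score between 6.69 and 9.28, each slope rests largely on the difference between tumors on either side of that gap, and slopes within either side were not tested. Of the 56 other Wnt pathway genes tested, 40 had negative and 4 positive slopes past the threshold. The negative ones included Wnt10a, Wnt11 and Dkk3, which did not pass the expression filter without replicates 5 and 6. The positive ones were Tcf7l2, Tle4, Ctnnbip1 and Gsk3a, and Tcf7l2 had the value 0.59 (adjusted p = 1.58e-06, edgeR).

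**Figure D4:**
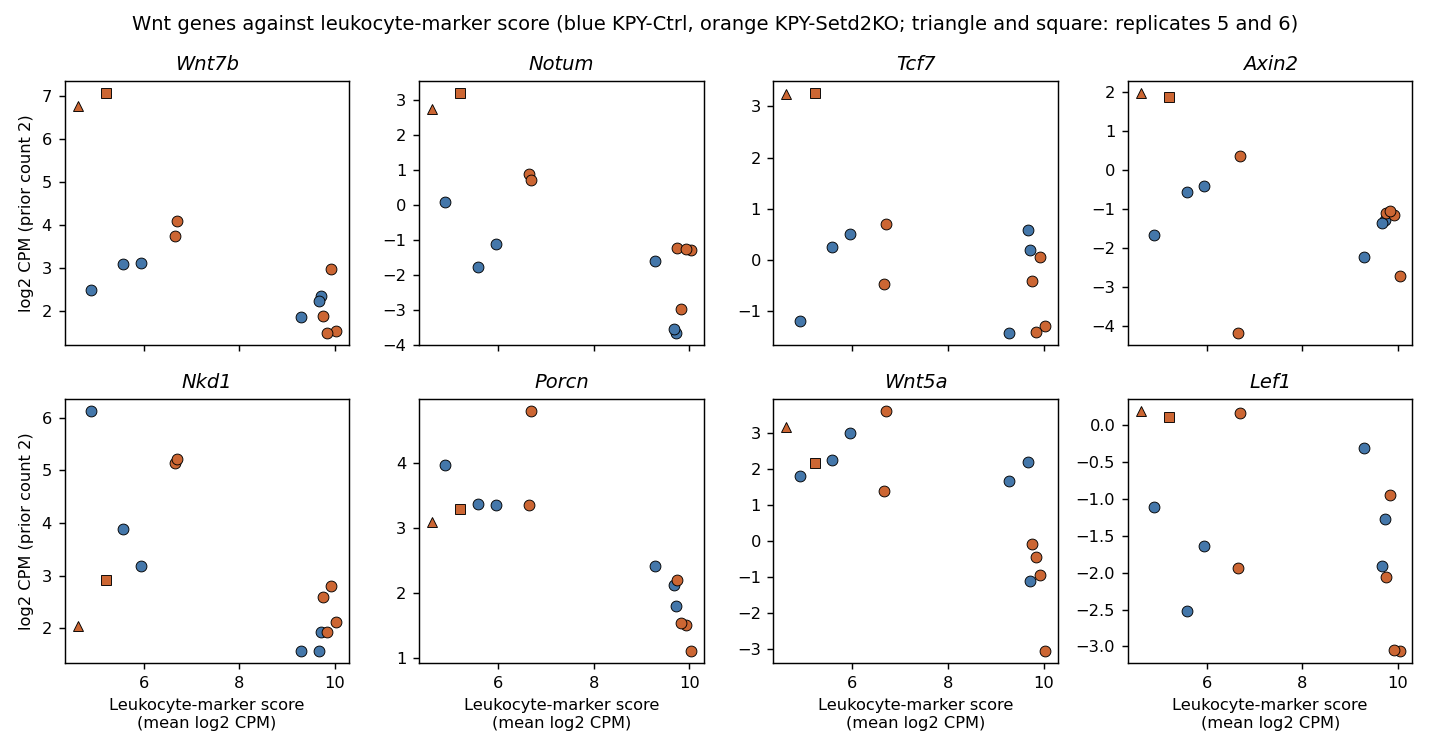
Log2 CPM with a prior count of 2 (vertical axes) of 8 of the 10 genes against the leukocyte score, the mean log2 CPM of 10 leukocyte markers (horizontal axes), for KPY-Ctrl (blue) and KPY-Setd2KO (orange) tumors, with replicates 5 and 6 of the latter as triangle and square. Porcn is low in all 7 tumors on the right, while Axin2 and Tcf7 have their highest points in replicates 5 and 6.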

How the data were processed

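RNA was measured in 14 tumors, 6 KPY-Ctrl and 8 KPY-Setd2KO. According to the processing notes and methods, the authors quantified single-end reads with Salmon 0.8.2 on GRCm38.p5. The deposited table holds their estimated counts for each Ensembl gene, rounded and not normalized, with the largest values given to 3 digits. All 14 columns matched a sample by name. Symbols, positions and exon-union lengths came from GENCODE vM21 (GRCm38). Counting by Salmon can split reads between similar transcripts.

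Genotypes were compared by the robust quasi-likelihood test of edgeR 4.0.16 (R 4.3.3) after the default expression filter and TMM scaling. P-values were adjusted by Benjamini-Hochberg over the 16836 genes tested and called under 0.05. DESeq2 1.42.0 was an alternative, run with its default replacement of outlying counts. Log2 CPM used a prior count of 2. The procedure was tested on simulated data. The paper's methods used DESeq2 for these comparisons.

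The 10 genes, the 8 Wnt pathway lists (98 genes, 88 without the 10), the marker lists and the tests were chosen with earlier results of these data known. Other named genes were, in each list, the tested gene with the smallest p and that with the largest change, those called, and the 3 most correlated with Wnt9a and with Axin2. The genes counted as highest in particular tumors, and the ligands that were too low to test, were named after their values were seen. Leaving out KPY-Setd2KO replicates 5 and 6 together was added after seeing the data. One allele that all mice carried is not reported here.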

Additional observations from a re-analysis of the deposited data

Results flagged for a closer look

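In 46 groups of values examined for a tumor apart from the rest of its group, 1 was found, and chance alone flags about 1 in 20. Wnt5a in KPY-Ctrl replicate 1 had a log2 CPM of -1.12, whereas the other KPY-Ctrl tumors lay between 1.65 and 2.99. The gap to the nearest tumor was 0.674 of the range of the group.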

How the results depend on the processing

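Genes called between genotypes, 0 with edgeR on genotype alone, numbered 702 with DESeq2 and 882 with the leukocyte score as a covariate (506 higher and 376 lower), and from 0 to 1 when each tumor was left out in turn, the 1 arising without KPY-Ctrl replicate 6. Other Wnt pathway genes called numbered 0 in the same test, 2 with DESeq2 and 2 with the covariate (Fzd7 and Tle1, both lower), and 0 to 0 when each tumor was left out. The slopes called among the 10 genes, Wnt9a and Axin2 included, numbered 8, but 3 when at least 10 counts were required in every tumor. They numbered 5 without KPY-Setd2KO replicates 5 and 6, and 0 when an absolute slope over 1 was also required. When each tumor was left out they numbered 6 to 8, with the lowest number without KPY-Setd2KO replicate 5. The median log2 fold change of the fitted genes among the 10 was 1.61, but 0.06 with at least 10 counts in every tumor, which leaves 3 of them, and -0.009 without KPY-Setd2KO replicates 5 and 6. It ranged from 0.702 without KPY-Setd2KO replicate 5 to 1.78 without KPY-Setd2KO replicate 2, and was 0.71 without replicate 6, 0.994 without replicate 8 and 0.665 with the covariate. Wnt9a did not pass the filter when KPY-Setd2KO replicate 4, 5, 6 or 8 was left out, so those medians rest on 8 genes, for which the median with all tumors was 1.09. No result reversed by its test. Of the values of single genes, 122 moved by less than the spread when a tumor was left out. In other settings 65 did so, against 1 that moved further, and without KPY-Setd2KO replicates 5 and 6 it was 6, against 2. The 65 include unfitted differences of mean log2 CPM with a prior count of 0.5. The spread was each gene's SD of log2 CPM pooled within genotypes, which replicates 5 and 6 widen where they are highest. Axin2 going from 1.63 to 0.05 without them thus counted as less than the spread, so these counts do not show that values are stable. The log2 fold changes of Nkd1, Porcn, Wnt5a, Lef1 and Tcf7 changed sign in some of the settings above, Nkd1 from -0.83 to 0.95 when each tumor was left out.

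Replicate numbers did not pair the tumors: the correlations of same-numbered tumors were 0.522, 0.602, -0.483, -0.664, 0.657 and -0.355. With a replicate block over replicates 1 to 6, 0 genes and 0 other Wnt pathway genes were called, and the median over 8 of the 10 genes was 0.295. Depth limits Wnt9a, Axin2, Lgr5, Lef1 and Notum, which had under 10 counts in several tumors.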
